A study of Homo sapiens with 12 samples.

Results

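Both arms of the miR-335 hairpin were followed in small RNA libraries of extracellular vesicles (EV) from human induced pluripotent stem cells (hiPSC) on their way to cardiomyocytes. The members are 2 of the 1133 miRNA listed in the table of counts, hsa-miR-335-3p and hsa-miR-335-5p, written here without the prefix. They were chosen from measured values, because earlier fits of these same counts had called miR-335-3p in all 3 successive comparisons of the groups. The levels of the arms, their fold changes and their ratio are therefore given as descriptions, without tests. Both arms were among the 367 miRNA that reached 5 CPM, counts scaled to the total of miRNA counts of a library, in all 3 libraries of some group.

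The study asked how the miRNA carried by EV change as hiPSC become cardiomyocytes. All EV came from conditioned medium of a single line, iPS(IMR90)-4, and each group had 3 libraries from EV preparations of separate cultures. hiPSC-EV came from pluripotent cells at day 0 (24 h of conditioning in expansion medium). CPC-EV came from cardiac progenitor cells at day 6 (72 h), after differentiation in monolayer with CHIR99021, Activin A, IWR1 and ascorbic acid. CMi-EV came from immature cardiomyocytes at day 15 (48 h), which had been grown as aggregates in suspension. CMm-EV came from mature cardiomyocytes at day 35 (48 h), aggregates kept after day 15 in glucose-free medium with galactose, oleic acid and palmitic acid. Culture medium, conditioning time and culture format changed with the stage, so these and the cell state cannot be told apart. No cellular RNA was analysed here, and in such bulk samples fewer secreting cells and less of an RNA per vesicle cannot be told apart either.

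A miRNA hairpin is cut by the nuclease Dicer into a short duplex whose strands are the 5p and 3p arms. One strand is usually kept in an Argonaute protein, where its seed directs pairing with target mRNAs, while the other strand is mostly degraded. Because both arms come from the same precursor, transcription alone does not change their ratio. miR-335 lies in an intron of MEST, an imprinted gene expressed from the paternal allele and active in embryonic and mesodermal tissues. The 5p arm is the strand known as a suppressor of metastasis in breast cancer, acting on SOX4 and TNC.

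The RefSeq hairpin spans chr7:130496111-130496204 on the plus strand of GRCh38.p14. It is shown because the whole comparison rests on its arms, which are in capitals, the 5p arm first.

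MIR335 hairpin: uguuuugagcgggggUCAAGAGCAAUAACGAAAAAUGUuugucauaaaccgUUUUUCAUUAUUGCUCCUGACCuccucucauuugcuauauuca

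The mature arms are given with the seed, bases 2 to 8 from the 5′ end, in capitals.

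miR-335-5p: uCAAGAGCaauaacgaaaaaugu

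miR-335-3p: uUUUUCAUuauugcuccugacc

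miR-335-5p covers chr7:130496126-130496148 and has 23 bases, of which 12 are A. miR-335-3p covers chr7:130496162-130496183 and has 22 bases, of which 11 are U. Among 2370 human mature miRNA in RefSeq, each seed occurred in that 1 arm alone, so neither arm shares its seed with another miRNA of that set. RNAfold gave the hairpin a minimum free energy of -40.2 kcal/mol, with 18 of the 23 bases of the 5p arm paired to the 3p arm and 13 bases between the arms. In each arm 6 of the 7 seed bases were paired to the opposite arm. In GENCODE 44 the hairpin lies in intron 2 of the 12-exon transcript MEST-201 (intron at chr7:130495523-130497155). It fell within an intron in 13 of the 17 MEST transcripts and in an exon of none (0 of 17). A lncRNA on the opposite strand, ENSG00000270823 (chr7:130495794-130498427), overlaps the same intron.

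The libraries held 703428 to 6272470 miRNA counts and 131541 to 1909191 counts of GENCODE transcripts, and TMM factors of the miRNA ranged from 0.483 to 1.75. Marker lists of pluripotent cells and of cardiomyocytes were highest in hiPSC-EV and in EV of cardiomyocytes, but single members carried the sums of miRNA. Summed CPM of 8 miRNA typical of pluripotent cells (such as miR-302b-3p) was 172200 to 211287 in hiPSC-EV, then 49492 to 79832 in CPC-EV, then 4067 to 6809 in CMi-EV and finally 114 to 304 in CMm-EV. miR-302b-3p held 94.1% of the counts of this list. From hiPSC-EV to CPC-EV only 2 of the 8 were called lower by edgeR (FDR of 0.05 or less and a log2 change of 1 or more in size), miR-302b-3p and miR-302c-3p, with a list median of -0.28 beside -0.27 over all miRNA. miR-371a-5p (0.42), miR-372-3p (0.89) and miR-373-3p (1.23) had log2 changes above 0 that were not called. Summed CPM of 6 cardiomyocyte miRNA (such as miR-1-3p) was 46.4 to 69.5, 754 to 1515, 20729 to 75364 and 37700 to 215490 in the same order, with 94.9% of its counts from miR-1-3p. Pluripotency transcripts (9 listed, including POU5F1 and LIN28A) summed to 733 to 1273 CPM in hiPSC-EV and 3.97 to 43.0 in CMm-EV, and cardiomyocyte transcripts (9 listed, including TNNT2 and TTN, which held 77.8% of the counts) to 26.6 to 126 and 8288 to 11414. The 6 listed cardiac progenitor transcripts summed to 0 to 3.16 CPM in hiPSC-EV and to medians of 183, 256 and 159 CPM in CPC-EV, CMi-EV and CMm-EV, so they did not single out CPC-EV. Lists for other cell types were also present. Stromal transcripts (6 listed) ranged from 0 to 175 CPM and blood miRNA (4 listed, nearly all counts from miR-486-5p) from 726 to 8657 CPM, highest in hiPSC-EV. Endoderm miRNA (4 listed) summed to 1297 to 2244 CPM in hiPSC-EV and 6284 to 8840 in CPC-EV, where their median was the highest, then to 3459 to 7196 in CMi-EV and 2236 to 4611 in CMm-EV. From hiPSC-EV to CPC-EV 3 of these 4 were called higher, miR-122-5p, miR-375-3p and miR-192-5p, where 27.5% of all 338 miRNA tested were called in either direction, and the list median was 3.69 beside -0.27 over all. miR-122-5p, with 0, 0 and 6 counts in hiPSC-EV, passed the filter only through CPC-EV, so its direction was set on entry, while the other two passed in both groups. The part of these RNA in the levels of miR-335 was not tested.

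miR-335-3p was lower at each successive stage, while miR-335-5p took another course. The mean of the 3p arm went from 7092 CPM in hiPSC-EV to 249 CPM in CMm-EV, and its libraries did not overlap between any neighbouring groups. The mean of the 5p arm was 275, 138, 233 and 53.2 CPM in the 4 groups in order, and neighbouring groups overlapped except for CMi-EV and CMm-EV.

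In hiPSC-EV the 3p arm stood at 7296, 7797 and 6182 CPM in libraries 1, 2 and 3 (7092 ± 827, SD, n = 3). These levels rested on 6304, 19665 and 29091 counts and placed the arm 18th, 20th and 25th by abundance among the miRNA of those libraries. miR-335-3p was thus among the more abundant miRNA of hiPSC-EV. In CPC-EV it stood at 1844, 2495 and 1786 CPM (2042 ± 393), from 4822, 10089 and 4820 counts, and its rank was 33 to 38. In CMi-EV it stood at 548, 980 and 1403 CPM (977 ± 428), from 1247, 1873 and 1943 counts. The spread within CMi-EV was the widest of the 4 groups for this arm, with a coefficient of variation of 43.8% against 11.7%, 19.3% and 17.5% in hiPSC-EV, CPC-EV and CMm-EV. In CMm-EV the arm stood at 230.0, 219 and 299 CPM (249 ± 43.6), from 190, 828 and 734 counts, at rank 94 to 103. Every library of CMm-EV lay below every library of CMi-EV, CPC-EV and hiPSC-EV.

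The 5p arm was present at lower levels than the 3p arm in every library. In hiPSC-EV it stood at 149, 319 and 356 CPM (275 ± 110, SD, n = 3), from 129, 805 and 1673 counts. In CPC-EV it stood at 123, 187 and 103 CPM (138 ± 43.8), from 322, 756 and 278 counts. Library 1 of hiPSC-EV lay within the range of CPC-EV, so the groups overlapped. In CMi-EV it stood at 156, 194 and 350 CPM (233 ± 103), from 355, 370 and 484 counts. This range lay inside that of hiPSC-EV, and CMi-EV 3 gave the 5p arm its best rank in any library, 90th. In CMm-EV it stood at 54.5, 2.38 and 103 CPM (53.2 ± 50.2), from 45, 9 and 252 counts. CMm-EV 2 held only 9 counts of the 5p arm, which ranked 338th there, although with 6272470 miRNA counts it was the deepest of the 12 libraries. The CMm-EV libraries lay below all those of CMi-EV and hiPSC-EV, while CMm-EV 3, at 102.8 CPM, lay just under the lowest library of CPC-EV, at 103.0 CPM.

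**Figure D1:**
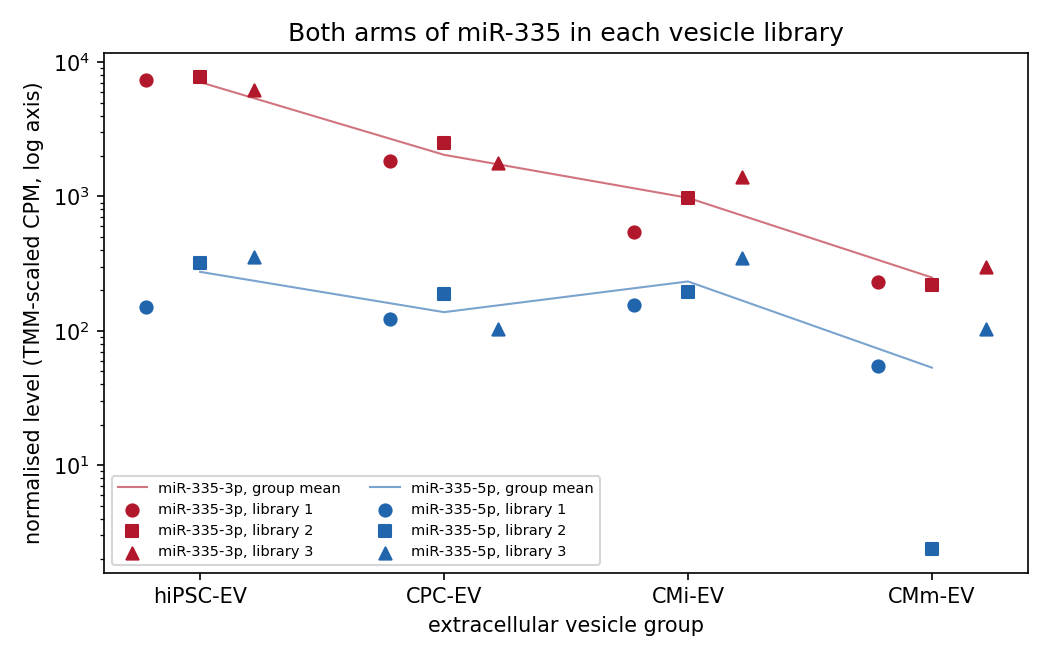
Level of miR-335-3p (red) and miR-335-5p (blue) in each of the 12 libraries, as TMM-scaled CPM on a log axis, by EV group. Symbols mark library 1, 2 and 3 and lines join the group means. The 3p arm steps down from 7092 to 249 CPM without overlap of neighbouring groups, while the 5p arm stays between 103 and 356 CPM in the first 3 groups.

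Fold changes were fitted with edgeR for each pair of groups, scaled within the 6 libraries of the pair, so they can differ from ratios of the CPM above, which share 1 scaling over 12 libraries. A miRNA was called when its FDR was 0.05 or less and its log2 change was 1 or more in size. From hiPSC-EV to CPC-EV the fitted log2 change of miR-335-3p was -1.40 (SE 0.19) and that of miR-335-5p was -0.57 (SE 0.40). Of all 338 miRNA tested there, 27.5% were called and the median log2 change was -0.27. From CPC-EV to CMi-EV the 3p arm changed by -1.09 (SE 0.30) and the 5p arm by 0.74 (SE 0.42). The arms thus had opposite signs at this step. There 28.4% of 292 miRNA were called and the median change was -0.05.

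At the last step, into CMm-EV, the 3p arm changed by -2.14 (SE 0.37) and the 5p arm by -2.31 (SE 1.10). The 5p estimate averages unlike libraries of CMm-EV and ranged from -3.34 with RPM and -3.29 without CMm-EV 3 to -1.75 without CMm-EV 2, while the 3p values in those fits were -2.31, -2.31 and -2.07. There 16.6% of 247 miRNA were called, with a median of -0.29. From hiPSC-EV to CMm-EV the 3p arm changed by -5.14 (SE 0.26), a 35.4-fold lower level, and the 5p arm by -2.76 (SE 1.07). In that comparison 53.6% of 336 miRNA were called and the median of all was -1.53, so both estimates lie below a median that was itself below 0.

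The 3p arm was called in 4 of the 4 comparisons and the 5p arm in 0 of the 4. As the 3p arm was chosen on its calls, nothing is read from that count. Refits of the same counts add no support to calls that chose the arm, so only the losses are given. Between CPC-EV and CMi-EV the 3p call was lost without CPC-EV 1, CPC-EV 2, CPC-EV 3, CMi-EV 1 or CMi-EV 2, with log2 changes from -1.41 to -0.85 over the 6 fits that left out 1 library, and it was also lost with median-of-ratios scaling. Between CMi-EV and CMm-EV it was lost without CMm-EV 2. The missing calls of the 5p arm depended on the processing only in comparisons with CMm-EV. The arm was called there without a filter in both comparisons and, against hiPSC-EV, also with library size scaling, with DESeq2 and without CMm-EV 3 (log2 change -3.76). Without CMm-EV 2 its change against hiPSC-EV was -1.98.

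**Figure D2:**
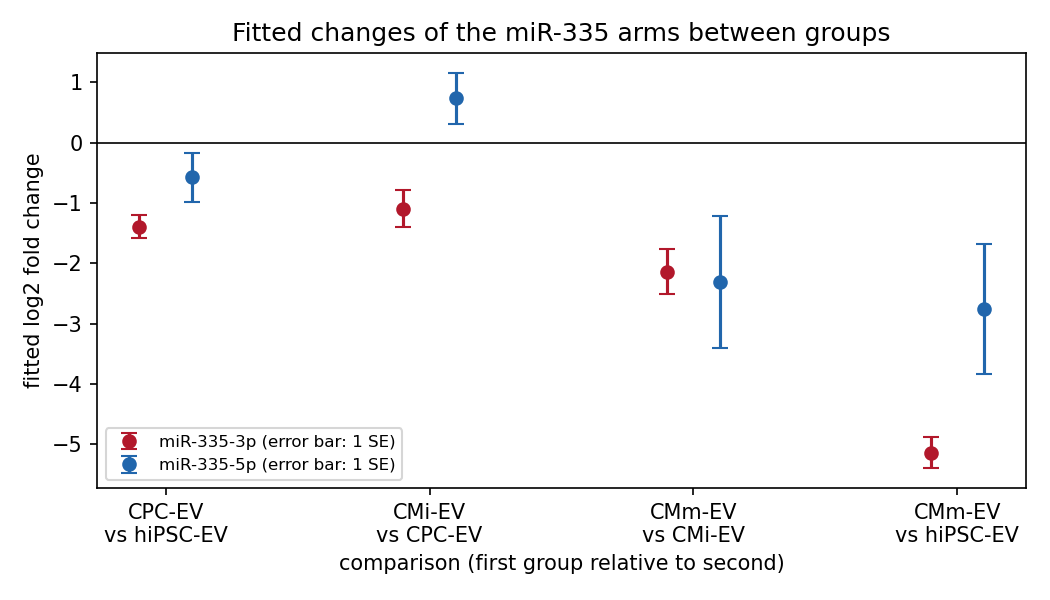
Fitted log2 fold change of miR-335-3p (red) and miR-335-5p (blue) in 4 comparisons of EV groups, with bars of 1 SE from the edgeR fit. The arms lie on opposite sides of 0 in CMi-EV against CPC-EV (-1.09 and 0.74) and both below 0 in CMm-EV against CMi-EV (-2.14 and -2.31), where the bar of the 5p arm is the wider.

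The ratio of the arms needs no scaling between libraries, since both are counted in the same library. In every library the 3p arm exceeded the 5p arm. The ratio of 3p to 5p counts was 48.9, 24.4 and 17.4 in hiPSC-EV and 14.98, 13.3 and 17.3 in CPC-EV. The groups were separate by the narrowest of margins, the lowest library of hiPSC-EV at 17.39 and the highest of CPC-EV at 17.34. In CMi-EV the ratio was 3.51, 5.06 and 4.01, below every library of hiPSC-EV and CPC-EV. In CMm-EV it was 4.22, 92.0 and 2.91. Library 2 of CMm-EV had the highest ratio of all 12 and library 3 the lowest, so this group had no common ratio.

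Expressed as a share of the counts of both arms, miR-335-3p took 96.2% ± 1.72 (SD, n = 3) at day 0 and 93.8% ± 0.759 at day 6. At day 15 its share was 80.5% ± 2.85, and at day 35 it was 84.7% ± 12.7. The 95% Wilson intervals of single libraries were narrow where counts were high, as in hiPSC-EV 3 (94.6%, 94.3% to 94.8%). CMi-EV 1 had the lowest share of its group, 77.8% (75.7% to 79.8%), and CMi-EV 2 the highest, 83.5% (81.9% to 85.0%). This range within CMi-EV was narrower than the step of the mean from CPC-EV. In CMm-EV the share was 80.9% (75.3% to 85.4%), 98.9% (98.0% to 99.4%) and 74.4% (71.6% to 77.1%). The interval of CMm-EV 2 did not meet those of CMm-EV 1 and CMm-EV 3. These intervals treat every count as independent and leave out the spread between cultures. PCR copies are not independent molecules, so the intervals can be too narrow even for counting error. Without CMm-EV 2 the mean share of CMm-EV was 77.6% and its mean log2 ratio 1.80, against 3.35 with it.

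**Figure D3:**
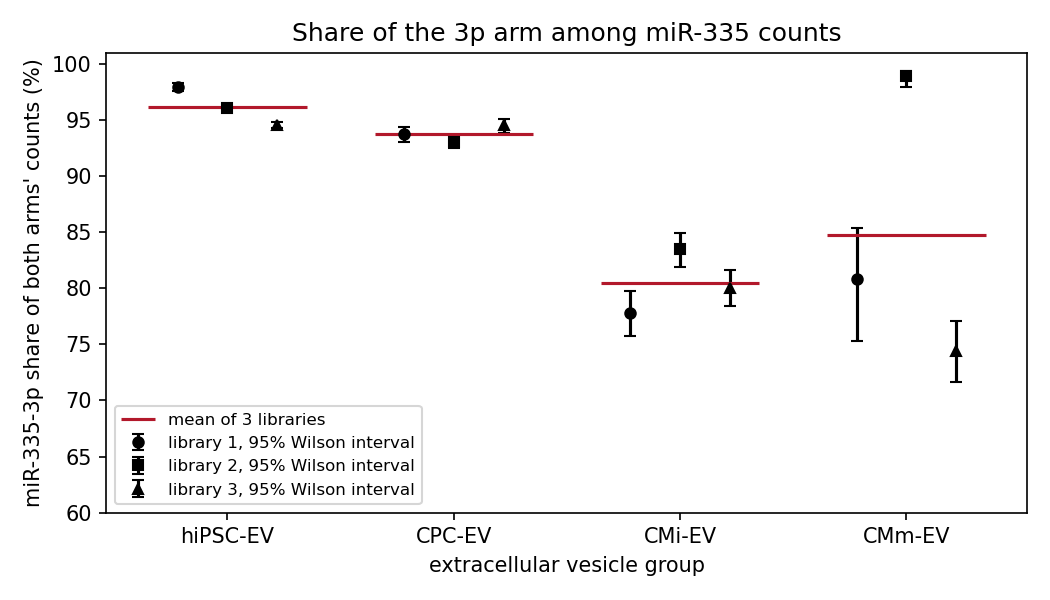
Share of miR-335-3p among the counts of both arms (%, axis from 60) in each library, with 95% Wilson intervals. Red lines are means of 3 libraries. The share is 93.0% to 98.0% in hiPSC-EV and CPC-EV and 77.8% to 83.5% in CMi-EV, and CMm-EV 2 stands at 98.9% above the other CMm-EV libraries.

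The arm ratio was set beside those of all 69 hairpins, miR-335 included, whose arms both passed the filter in some group, as the mean log2 ratio of 3p to 5p counts with 0.5 added to each. Some of these hairpins had no counts in a group they were compared in, where the added 0.5 sets their ratio. Values are therefore also given, as a choice made after seeing the data, for hairpins with at least 10 counts of both arms together in every library compared. From hiPSC-EV to CPC-EV miR-335 changed by -0.86, the 26th lowest of 69 and the 23rd lowest of 61. The median was -0.26 in either set. The libraries did not overlap in 34.8% of the hairpins, and in 37.7% of the 61 counted in every library.

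From CPC-EV to CMi-EV miR-335 changed by -1.87, the 14th lowest of 69 (median 0, 31.9% not overlapping) and the 9th lowest of 54 counted in every library (median 0.35, 31.5% not overlapping). In the last step it changed by 1.30 with overlapping libraries, the 55th lowest of 69 and the 39th lowest of 47. The median was -0.22 in either set, with 18.8% of the 69 and 21.3% of the 47 not overlapping. This rise rested on CMm-EV 2. Without that library the mean log2 ratio of miR-335 in CMm-EV was 1.80, below the 2.05 of CMi-EV. From hiPSC-EV to CMi-EV miR-335 changed by -2.73, the 7th lowest of 69 and the 6th lowest of 53, with a median of 0.05 in either set. The middle 50% of the 53 lay between -1.22 and 2.06, and 36.2% of the 69 and 35.8% of the 53 did not overlap. The pair of hiPSC-EV and CMm-EV was not ranked in this way. There the mean log2 ratio of miR-335 was 4.78 (4.12 to 5.61) in hiPSC-EV and 3.35 (1.54 to 6.45) in CMm-EV, so the libraries overlapped.

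**Figure D4:**
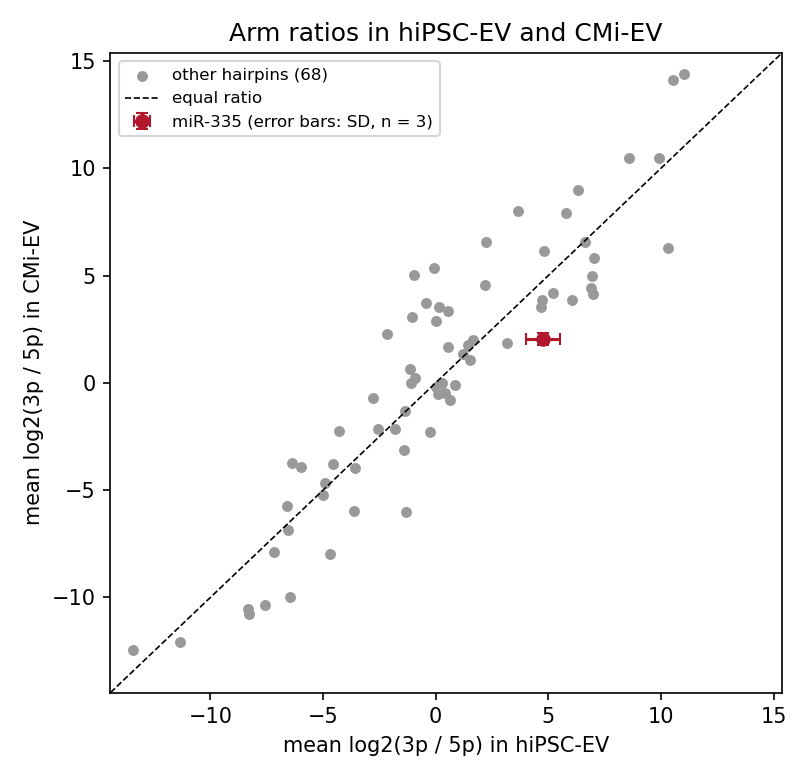
Mean log2 ratio of 3p to 5p counts in hiPSC-EV (x axis) and CMi-EV (y axis) for 69 hairpins, with miR-335 in red (bars are SD, n = 3) and the dashed line marking equal ratios. miR-335 lies under the line, at 4.78 in hiPSC-EV and 2.05 in CMi-EV.

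The miRNA whose log2 levels were most like those of miR-335-3p over the 12 libraries (Pearson r, a description over libraries that share 4 groups) were miR-363-3p (r = 0.982), miR-296-3p (0.981), miR-1298-5p (0.977), miR-1323 (0.976) and miR-183-5p (0.960). miR-363-3p, a member of the miR-106a-363 cluster, had means of 54757, 13288, 5816 and 1226 CPM in the 4 groups in order. miR-1323, of the primate cluster on chromosome 19, dropped more steeply, from 1913 to 232, 34.1 and 0.807 CPM. miR-296-3p was far less abundant, with 290, 115, 59.1 and 27.7 CPM. The 5p arm came only 124th in likeness to the 3p arm, with r = 0.658. The miRNA most like miR-335-5p were less close, namely miR-1292-5p (r = 0.845), miR-106a-5p (0.830), miR-550a-5p, which is listed together with miR-550a-3-5p (0.783), miR-148a-3p (0.779) and miR-425-3p (0.770). Their courses were mixed. miR-148a-3p stood at 16789, 10661, 12037 and 5277 CPM, higher in CMi-EV than in CPC-EV on average, while miR-106a-5p stood at 2215, 523, 105 and 23.8 CPM, lower at each stage. Which miRNA rank highest for miR-335-5p depended on the measure, since by Spearman rho only miR-148a-3p remained among the first 5.

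MEST encodes a protein of the hydrolase fold and is the host gene of miR-335. Fragments of its protein-coding transcripts were counted in the GENCODE table, and these values played no part in choosing the arms. MEST fragments numbered 33, 15 and 23 in the hiPSC-EV libraries, or 104, 27.7 and 30.5 CPM of that table (54.2 ± 43.4, SD, n = 3). All 9 libraries of CPC-EV, CMi-EV and CMm-EV had 0 counts. A count of 0 allowed levels of up to 1.95 to 3.34 CPM in CPC-EV, 5.90 to 11.7 in CMi-EV and 7.17 to 12.7 in CMm-EV, taking 3 counts per library as the floor. The host transcript was thus detected in hiPSC-EV alone, whereas both arms of miR-335 were counted in all 12 libraries. The counts were unlike in size, 15 to 33 of MEST against 6304 to 29091 of miR-335-3p in the hiPSC-EV libraries. A lower level of MEST could thus go uncounted, above all in CMi-EV and CMm-EV, where the floor was higher than in CPC-EV.

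**Figure D5:**
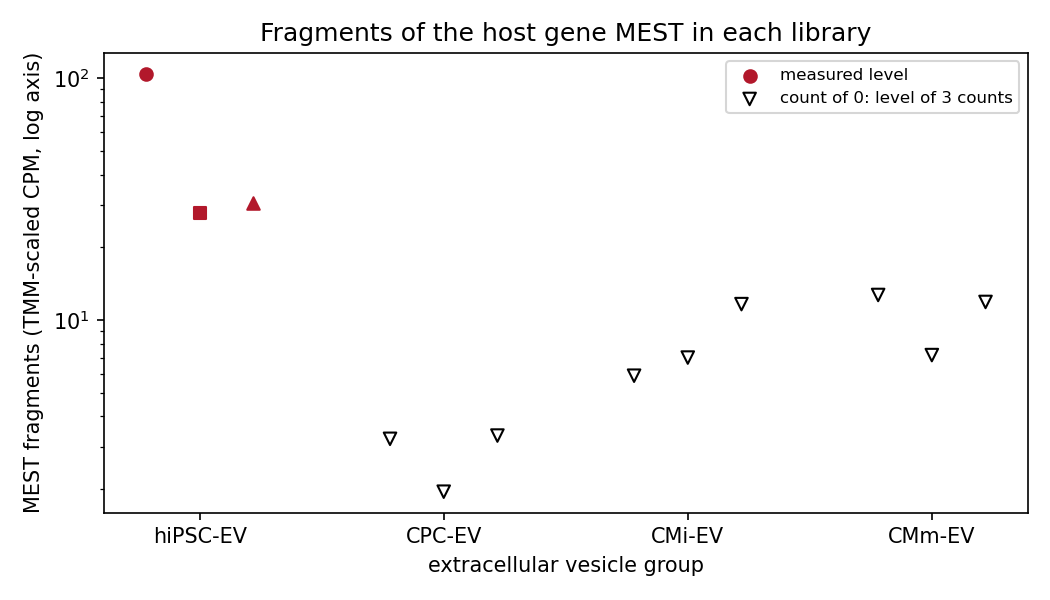
MEST fragments in each library as TMM-scaled CPM of the GENCODE table, on a log axis. Filled red symbols are measured levels and open triangles mark the level of 3 counts in libraries with a count of 0. The 3 hiPSC-EV libraries sit between 27.7 and 104 CPM, above all the triangles, which span 1.95 to 12.7 CPM.

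In edgeR's quasi-likelihood test with Benjamini-Hochberg adjustment, MEST was called lower in CPC-EV against hiPSC-EV (FDR 0.0248, at least 19.1-fold lower against the floor, or 10.2-fold without hiPSC-EV 1), where 11% of 3072 transcripts were called. It was called lower in CMm-EV against hiPSC-EV as well (FDR 0.00803, at least 5.11-fold lower, or 2.75-fold without hiPSC-EV 1), where 51.4% of 2171 transcripts were called. These calls rest on 71 counts in all. MEST entered both tests only through hiPSC-EV, where it passed the filter, so the filter set the direction that a call could take. The first was lost without hiPSC-EV 2 (FDR 0.0549) or hiPSC-EV 3 (FDR 0.0538) and with the replicate number as a term (FDR 0.140). Both were lost without a filter on low counts (FDR 0.108 and 0.301), and the filter filterByExpr removed MEST from both tests. In the remaining comparisons MEST had no count in either group. The antisense transcript over the hairpin's intron and MEST could be told apart only if reads were assigned by strand, which is not stated.

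Few other imprinted genes were counted well enough to be tested. Of 30 imprinted or MEST-flanking genes on a list, 20 were in the table, and they entered the tests in numbers of 4 to 8. Each called gene named here passed the filter in only 1 of the groups compared, the one where it was higher, so its direction was set on entry and the counts of calls are read only beside the share over all transcripts. From hiPSC-EV to CPC-EV (11% of 3072 transcripts called), 8 were tested, MEST was called lower, and H19, a maternally expressed noncoding RNA, was called higher (FDR 0.0257), from 0 counts in hiPSC-EV to 30, 57 and 59 in CPC-EV, at least 7.11-fold higher against the floor. The median of the 8 was -0.26 on the log2 scale, beside 0.09 over all transcripts, but its sign turned with the processing, to 0.56 beside 0.0020 with the filter filterByExpr and to 0.49 beside 1.04 with library size scaling. From CPC-EV to CMi-EV (30.7% of 2378 transcripts called), 2 of 8 were called lower, COPG2 and SNRPN, a share below that over all transcripts. COPG2, a coatomer subunit gene that overlaps the 3′ end of MEST on the opposite strand, had 9, 114 and 54 counts in CPC-EV and 0 in each CMi-EV library (FDR 0.0268, at least 5.86-fold lower). SNRPN, a splicing protein gene expressed from the paternal allele, had 24, 82 and 5 counts and then 0 (FDR 0.0327, at least 3.46-fold lower, or 1.92-fold without CPC-EV 2).

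The median of those 8 was 1.05, beside -1.42 over all transcripts. From CMi-EV to CMm-EV (12.2% of 917 transcripts called), 1 of 4 was called lower, the growth factor gene IGF2 (FDR 0.0387, at least 16.3-fold lower, or 7.09-fold without CMi-EV 3), with 61, 13 and 95 counts and then 0. From hiPSC-EV to CMm-EV (51.4% of 2171 transcripts called), 5 were tested, MEST was called lower and KCNQ1OT1, an imprinted noncoding RNA, higher (FDR 0.0466), with 5, 39 and 5 counts in hiPSC-EV and 88, 93 and 35 in CMm-EV. The medians of these lists were 0.48 and 1.80, beside -0.19 and -2.16 over all. The medians over all transcripts depended on the filter. With filterByExpr the list had 1.53 beside -0.68 from CPC-EV to CMi-EV, and 0.64 beside -0.05 from CMi-EV to CMm-EV. From hiPSC-EV to CMm-EV it had 2.20 beside -0.37. Leaving out 1 library at a time kept these calls unevenly. H19 was lost without hiPSC-EV 2 (highest FDR 0.0799) or hiPSC-EV 3, COPG2 without CPC-EV 2 (0.0543), and SNRPN without CPC-EV 2 or CMi-EV 1 (highest 0.0607). IGF2 held in 1 of 6 such fits, the one without CMi-EV 3 (FDR up to 0.0743 in the others), and KCNQ1OT1 in 2 of 6, those without hiPSC-EV 2 or CMm-EV 3 (up to 0.139). Without a filter all 5 of these calls were lost. With the replicate number as a term H19, COPG2, SNRPN and IGF2 were lost, as was the MEST call from hiPSC-EV to CPC-EV. In the fit of all 12 libraries H19, COPG2 and KCNQ1OT1 were lost. With filterByExpr, 0 of the list were called in any comparison, and the calls over the whole table came to 0, 2, 0 and 152 in the 4 comparisons in order. MESTIT1 overlaps the 5′ end of MEST on the opposite strand. MESTIT1, CPA4 and KLF14 were not found in the table under these names, so they were not analysed here.

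Of 7 miRNA from other imprinted loci, 5 were listed. From hiPSC-EV to CPC-EV, where 27.5% of all miRNA were called, 3 of 4 tested were called, miR-483-5p and miR-483-3p, encoded in IGF2, higher (FDR 0.00566 and 0.00618) and miR-296-5p, from the GNAS locus, lower (FDR 0.0127). Each of the 3 had passed the filter only in the group where it was higher. miR-483-5p had 0, 0 and 23 counts in hiPSC-EV and 607, 638 and 891 in CPC-EV. miR-296-5p had 9, 15 and 95 counts in hiPSC-EV and 0 in each CPC-EV library, at least 12.2-fold lower. From hiPSC-EV to CMm-EV, where 53.6% of all were called, 1 of 2 was called, and miR-296-3p, which passed the filter in both groups, fell by 3.71 on the log2 scale (SE 0.45, FDR 9.28e-04). These 4 calls held in 6 of 6 fits that left out a library. The miR-296-5p call was lost without a filter, with filterByExpr and with the replicate number as a term, and the miR-483-3p call without a filter, in the fit of all 12 libraries and with that term. In the other comparisons edgeR called 0 of 3 and 0 of 2, with 0 and 1 at an unadjusted p under 0.05 and 0 by DESeq2. Over all miRNA tested there, 28.4% of 292 and 16.6% of 247 were called. The median log2 changes of this list were 3.18, 0.69, -2.89 and -3.81 over the comparisons in order, beside -0.27, -0.05, -0.29 and -1.53 over all miRNA. miR-675-3p, encoded in H19, had counts in 1 library only, 17 in CMi-EV 2.

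Transcripts published as targets of miR-335 were too sparse to follow. All 11 genes of the list were in the table, but only 2 were tested from hiPSC-EV to CPC-EV, 1 from CPC-EV to CMi-EV, 0 from CMi-EV to CMm-EV and 1 from hiPSC-EV to CMm-EV. In these tests edgeR and DESeq2 called 0, with 0 at an unadjusted p under 0.05. Over all transcripts edgeR called 11% from hiPSC-EV to CPC-EV, 30.7% from CPC-EV to CMi-EV and 51.4% from hiPSC-EV to CMm-EV. The median log2 change of the 2 tested from hiPSC-EV to CPC-EV was -0.36, beside 0.09 over all transcripts. BCL2L2, the single gene tested from CPC-EV to CMi-EV, had -0.48, beside a median of -1.42 over all. SOX4, the single gene tested from hiPSC-EV to CMm-EV, had -1.32, beside a median of -2.16 over all. SOX4, a transcription factor of progenitor cells, had 138 counts over the hiPSC-EV libraries, 136 over CPC-EV and 23 over CMm-EV, with a log2 change of -0.88 (SE 1.38, FDR 0.743) from hiPSC-EV to CPC-EV. Fragments of mRNA in EV do not measure repression of a target in the cells that take them up.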

How the data were processed

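The members and the lists were chosen with earlier results of these data known. Small RNA of EV (Norgen Biotek kits, NextSeq 500) was processed by the authors with exceRpt 4.6.2 on hg38 and miRBase 21. The submitters' processing notes name edgeR 3.24.0. The deposited tables give expected counts per feature for 12 libraries, of which 9.11% of the miRNA values above 0 were not whole, and they were rounded here. The authors also deposited RPM, used in 1 alternative. Whether the authors counted GENCODE transcripts by strand was not given in the sources used here. Tables of other RNA classes and normalized tables were not used.

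CPM were scaled with TMM over all 12 libraries from features that passed the filter of 5 unscaled CPM in every library of some group, a choice made after the factors from all listed features had also been seen. Each pair of groups was fitted with edgeR 4.0.16 (glmQLFit, glmQLFTest, two-sided, R 4.3.3) on its 6 libraries, with Benjamini-Hochberg adjustment over all features of the table tested in that pair. The fits were tested on simulated data with as many rises as falls. Called falls outnumbered called rises among the GENCODE transcripts, so that test does not vouch for those calls. p-values set the difference between groups against the spread between libraries within the groups, which edgeR estimates with help from all features tested. The fits were repeated with median-of-ratios or library size scaling, without a filter or with filterByExpr, with DESeq2 1.42.0, on all 12 libraries, with a replicate block and without each library in turn.

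The 3p share was taken per library, with 95% Wilson intervals from scipy 1.17.1. No pair of libraries of a group held the same counts within counting noise, so none was taken as a library deposited again, although repeat libraries of 1 sample can also differ by more than that noise. Sequences came from RefSeq and folding from ViennaRNA 2.7.2. Named genes were the arms, the 5 miRNA most like each, MEST and its neighbours, miRNA of imprinted loci, and the called members of the transcript lists. SOX4, BCL2L2 and members of the marker lists were named after their values were seen, 1 gene of the list of published targets is not reported here, and the list name miR-375 was matched to miR-375-3p.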

Additional observations from a re-analysis of the deposited data

How the results depend on the processing

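The fitted changes of both arms kept their sign under every alternative run. This adds no support, since the 3p arm was chosen on fits of these same counts. The 3p change from hiPSC-EV to CMm-EV moved to -5.55 with library size scaling and -4.65 in the fit of all 12 libraries. Scaling by library size moved the median change of all miRNA most in CMm-EV against CMi-EV, from -0.29 to -0.91, and that of all GENCODE transcripts most in CPC-EV against hiPSC-EV, from 0.09 to 1.04. The TMM factors behind the printed CPM, from miRNA that passed the filter, were kept after factors from all listed miRNA had been seen as well, and the latter gave 3p means of 7847, 2320, 884 and 213 CPM. Of the 5 miRNA most like miR-335-3p, 3 remained with Spearman rho and 3 with RPM, and of those most like miR-335-5p, 1 remained with Spearman rho.

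For MEST, the FDR without a filter was 0.108 (CPC-EV) and 0.301 (CMm-EV), and filterByExpr removed the gene. Leaving out single libraries gave 0.0376 to 0.0549 for CPC-EV against hiPSC-EV and 0.00343 to 0.0243 for CMm-EV. With a replicate block it was 0.140 for CPC-EV. Deviations of libraries with the same number correlated at -0.120 to 0.0975 over 18 pairs, and 12 of 36 fell closest to their own number, so the numbers were not taken to pair the cultures. The block left 39 of 93 miRNA calls from hiPSC-EV to CPC-EV and 17 of 41 from CMi-EV to CMm-EV, where filterByExpr gave 27 and leaving out CMm-EV 2 gave 20. It left 66 of 83 from CPC-EV to CMi-EV and 132 of 180 from hiPSC-EV to CMm-EV.

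Calls in the GENCODE table ranged over the alternatives from 0 to 697 (337 as reported) for CPC-EV against hiPSC-EV, 2 to 1508 (731) for CMi-EV against CPC-EV, 0 to 419 (112) for CMm-EV against CMi-EV and 68 to 2245 (1115) for CMm-EV against hiPSC-EV. The list of imprinted genes had 0 calls with filterByExpr in each direction and comparison, and 2 higher with library size scaling in CPC-EV and in CMm-EV against hiPSC-EV. MEST and the list rest on low counts, as does the 5p arm of CMm-EV 2. The causes were not tested.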
